A study of Canis lupus familiaris with 26 samples.

Results

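Genes of prostanoid formation and response were followed through the canine corpus luteum (CL): PTGDS and TBXAS1, which encode the lipocalin-type prostaglandin D2 (PGD2) synthase and the thromboxane A synthase, and PPARG, which encodes the nuclear receptor PPAR gamma. They were taken as the rows of ENSCAFG00000019533 (PTGDS), ENSCAFG00000004011 (TBXAS1) and ENSCAFG00000004991 (PPARG) in the read counts of every sample, 3 of 19856 genes counted. RNA-Seq had been performed on CL from 26 dogs of mixed breeds and various ages, 1 sample per dog, collected by ovariohysterectomy on days 5, 10, 20 or 30 after ovulation. Treated dogs had been given 10 mg/kg of firocoxib (Previcox), an inhibitor of prostaglandin synthase 2 (PTGS2, also COX2), by mouth every day from ovulation until collection. Control dogs had received a placebo according to the protocol in the labels, whereas the design text calls them untreated. Day 5 was represented by 4 control and 4 treated dogs, and each later day by 3 control and 3 treated dogs. Days 5 and 10 are referred to as the early CL and days 20 and 30 as the mature CL.

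Prostanoids are made from arachidonic acid. Prostaglandin synthases such as PTGS2 form the unstable intermediate PGH2, from which terminal synthases make the individual products: PTGDS and HPGDS make PGD2, TBXAS1 makes thromboxane A2, a vasoconstrictor and activator of platelets, PTGES makes PGE2 and PTGIS makes prostacyclin. TBXAS1 is known from platelets and macrophages. PGD2 is readily dehydrated to J-type prostaglandins, which can bind PPAR gamma, a transcription factor that pairs with retinoid X receptors and controls genes of lipid storage and inflammation. In the dog PGE2 is considered to be among the main regulators of the early CL, before prolactin becomes its main support.

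Totals per sample lay between 12831896 and 22658950 reads, and the 3 genes were above 0 in all 26 samples, with 54 to 3882 reads for PTGDS, 39 to 874 for TBXAS1 and 103 to 1370 for PPARG. Levels are given as CPM (reads divided by the sample's total and set to a common scale), with the TMM factors of edgeR over all samples. Since gene lengths were not used, levels of different genes are not compared. The CL of the day 20 treated group were the least alike of the groups analysed. Their correlations of log2 CPM across genes lay between 0.741 and 0.930, the lowest between replicates 2 and 3. Pairs of day 20 controls lay between 0.952 and 0.968. The authors had removed outliers from some other groups, judged partly from correlations between samples, but none from day 20. The contrast with day 20 controls is free of this selection, whereas the ranking over all groups is not. Markers of oocytes (ZP2, ZP3, ZP4, GDF9 and BMP15, all 5 with an identifier) summed to 148 to 258.3 CPM in day 20 treated samples and to 4.567 to 9.138 CPM in day 20 controls, in which ZP4 was at 0. Of the luteal steroidogenic markers only 2 of 6 had an identifier, which summed to 102 to 507.7 CPM, and of 5 platelet markers none had one, so the check of the labelled tissue rests on few genes and platelets could not be checked. Fewer cells of a type and less RNA per cell cannot be told apart in such bulk samples.

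PTGDS spanned the widest range of the 3 genes, from 3.24 CPM in day 20 control replicate 1 to 208.79 CPM in day 20 treated replicate 2, a 64.3-fold span. In day 5 controls it was at 47.5, 4.33, 39.5 and 22.4 CPM (replicates 1, 3, 4 and 5). In day 10 controls it was at 107.65, 59.7 and 29.7 CPM (replicates 2, 3 and 4). Control dogs thus differed by up to 11.0-fold within day 5 alone, with replicate 3 far below the rest. Levels in the mature controls were 3.24, 9.20 and 32.9 CPM on day 20 (replicates 1, 2 and 3) and 21.4, 7.38 and 10.9 CPM on day 30 (replicates 2, 3 and 4). Treated dogs on day 5 fell into a high and a low pair, at 158.01 and 161.67 CPM (replicates 1 and 4) and at 19.7 and 9.12 CPM (replicates 2 and 5). Those of day 10 were at 25.7, 53.1 and 21.6 CPM (replicates 1, 4 and 5), all below the highest control. The treated dogs of day 20 reached 208.79, 142.43 and 51.4 CPM (replicates 2, 3 and 4), and each of them was above every control of that day. By day 30 the treated dogs were back at 30.2, 15.8 and 11.7 CPM (replicates 2, 4 and 5), overlapping the controls.

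**Figure D1:**
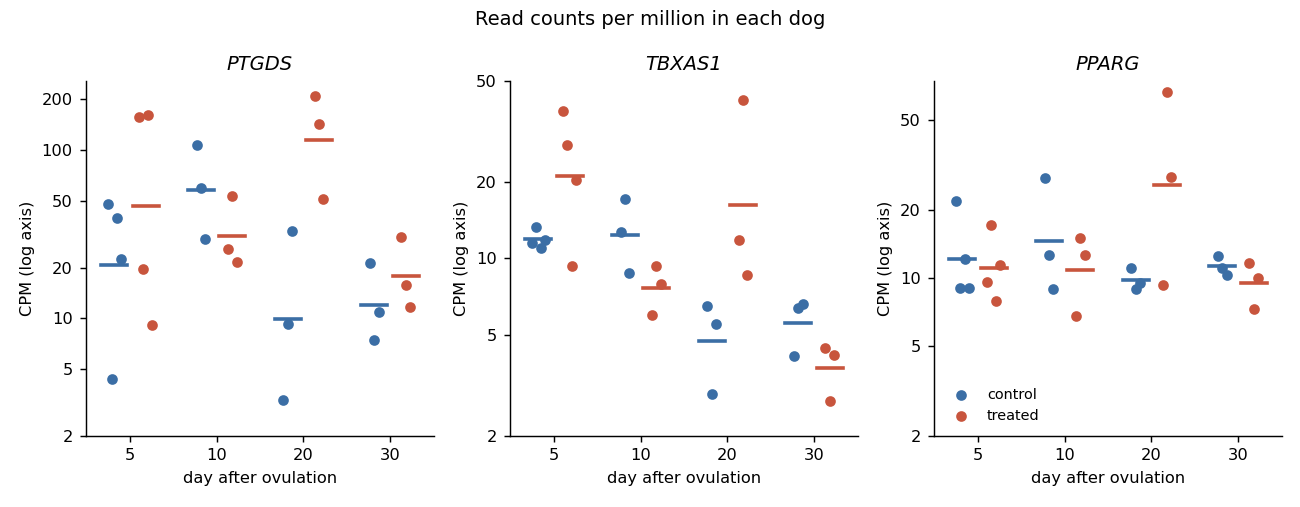
CPM of PTGDS, TBXAS1 and PPARG on a logarithmic axis against the day after ovulation, each point 1 dog, with control dogs in blue and treated dogs in red and lines at the geometric mean of each group. PTGDS scatters within most groups, and TBXAS1 is low in mature controls. Day 20 treated dogs lie above the controls of that day for all 3 genes, except for PPARG in 1 dog at 9.30 CPM.

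TBXAS1 was far more even among early controls. Its reads could include some of 1 long non-coding locus that overlaps it in the RefSeq annotation, since the library kit does not mark strand. Day 5 controls were at 11.5, 13.3, 10.99 and 11.8 CPM (replicates 1, 3, 4 and 5), a 1.21-fold span, and day 10 controls at 12.7, 17.1 and 8.77 CPM (replicates 2, 3 and 4). Mature controls were all lower, at 6.49, 2.92 and 5.53 CPM on day 20 (replicates 1, 2 and 3) and at 4.13, 6.38 and 6.60 CPM on day 30 (replicates 2, 3 and 4). The highest mature control was thus below the lowest early one. Treated dogs on day 5 were at 38.0, 27.9, 9.36 and 20.4 CPM (replicates 1, 2, 4 and 5), 3 of the 4 above every control of the same day. On day 10 they were at 5.99, 9.36 and 7.91 CPM (replicates 1, 4 and 5). Day 20 treated replicate 3 held the highest value of all, 42.1 CPM, beside 11.8 and 8.61 CPM in replicates 2 and 4, which still exceeded the 3 controls. On day 30 the treated dogs were at 4.43, 2.75 and 4.17 CPM (replicates 2, 4 and 5), among the lowest levels in the series.

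PPARG stayed between 6.78 and 27.7 CPM in 25 of the 26 dogs. Day 5 controls were at 21.8, 9.001, 12.1 and 9.01 CPM (replicates 1, 3, 4 and 5), and day 10 controls at 27.7, 12.5 and 8.95 CPM (replicates 2, 3 and 4). The mature controls were tightly grouped, at 11.0, 8.89 and 9.48 CPM on day 20 (replicates 1, 2 and 3) and at 12.4, 11.0 and 10.3 CPM on day 30 (replicates 2, 3 and 4). Early treated dogs overlapped the early controls, at 9.55, 17.1, 7.91 and 11.3 CPM on day 5 (replicates 1, 2, 4 and 5) and at 6.78, 14.9 and 12.7 CPM on day 10 (replicates 1, 4 and 5). The exception was day 20 treated replicate 3, at 66.0 CPM. The same group held 27.7 CPM in replicate 4 and 9.30 CPM in replicate 2, the last within the range of the controls. Day 30 treated dogs returned to 11.6, 7.27 and 9.97 CPM (replicates 2, 4 and 5).

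Differences between the 8 groups accounted for 71.9% of the sum of squares of log2 CPM for TBXAS1, 48.2% for PTGDS and 36.1% for PPARG, and for 39.9% in the median gene. Within groups, the standard deviation of log2 CPM was 1.36 for PTGDS, larger than in 98.4% of 2332 genes of like level, whose median was 0.52. For TBXAS1 it was 0.63 and for PPARG 0.67, near the medians of genes of like level, 0.62 and 0.59. Ranked by mean log2 CPM, PTGDS went from day 20 treated through day 10 control, day 5 treated, day 10 treated, day 5 control, day 30 treated and day 30 control down to day 20 control. TBXAS1 was highest in day 5 treated, followed by day 20 treated, day 10 control, day 5 control, day 10 treated, day 30 control, day 20 control and day 30 treated. The order for PPARG was day 20 treated, day 10 control, day 5 control, day 30 control, day 5 treated, day 10 treated, day 20 control and day 30 treated. The orders were sorted from the same values, so neighbours are the groups with the closest means. Overlap between them therefore does not show whether the groups differ. The exact permutation test of a pair cannot go below p = 0.0286 or 0.1, depending on group sizes. After adjustment over 21 pairs it could hardly reach a low value. Neighbours in these orders overlapped in 20 of 21 pairs. Only for TBXAS1 did day 5 control and day 10 treated dogs separate (exact permutation test, two-sided, p = 0.0286, the smallest this pair allows, and 0.6 after Benjamini-Hochberg adjustment over the 21 pairs).

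In control dogs TBXAS1 fell as the CL matured. The mean was 12.3 ± 2.56 CPM (SD, n = 7) in the early and 5.34 ± 1.51 CPM (SD, n = 6) in the mature CL, a log2 fold change of -1.22 (SE 0.22, 95% interval -1.69 to -0.74, FDR = 0.00257 from edgeR's quasi-likelihood test). It passed the study's thresholds of 0.01 for P and 0.1 for FDR, as did 20.5% of the 13503 genes tested, and its groups did not overlap, which held for 2.47% of all genes in this direction. PTGDS decreased from 44.4 ± 33.1 to 14.2 ± 11.0 CPM on average (SD), a log2 fold change of -1.64 (SE 0.60, FDR = 0.0630), with overlapping groups, and missed the threshold for P. PPARG differed less, 14.4 ± 7.38 against 10.5 ± 1.26 CPM (SD, log2 fold change -0.46, SE 0.27, FDR = 0.222). With DESeq2, the tool of the study, PTGDS passed as well (log2 fold change -1.67, FDR = 0.0150), among 26% of genes called. Of the 7 macrophage markers with an identifier (of 13 listed), all fell over the same period, none of them at 0. Their sum went from 158.1 to 435 CPM in early controls of both days to 86.3 to 131.2 CPM in mature ones. Identifiers came from the study's own lists of changed genes, which favours markers that changed, so the fall of all 7 is not independent evidence. The part of these markers in the decrease of TBXAS1 was not tested.

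No single step between consecutive days carried a call in controls. From day 10 to day 20 the log2 fold change was -2.12 for PTGDS (SE 0.96, FDR = 0.296), -1.37 for TBXAS1 (SE 0.51, FDR = 0.221) and -0.74 for PPARG (SE 0.52, FDR = 0.470), in a step in which 0.0776% of all genes passed. TBXAS1 did not overlap between these days, as was the case for 17.1% of all genes in this direction. From day 5 to day 10 the differences were 1.21, 0.11 and 0.33 on the log2 scale, and from day 20 to day 30 they were -0.19, 0.19 and 0.20, all of them with an FDR of 0.975 or more in edgeR. Neither of the latter steps had any gene past the thresholds (0% and 0%), with 409 and 302 genes at an unadjusted P under 0.05, and DESeq2 called 17 genes and 1 gene.

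In treated dogs none of the 3 genes passed the thresholds between the early and the mature CL, where 4.65% of genes did. The log2 fold change was 0.28 for PTGDS (SE 0.76, FDR = 0.850), -0.44 for TBXAS1 (SE 0.63, FDR = 0.699) and 0.96 for PPARG (SE 0.48, FDR = 0.281). These values rested in part on day 20 treated replicate 3, without which they were 0.00086, -1.41 and 0.21 (FDR = 0.9995, 0.216 and 0.804). Tested directly, the difference between treated and control dogs in this change was 1.52 for PTGDS (SE 0.90, FDR = 0.747), 0.60 for TBXAS1 (SE 0.48, FDR = 0.850) and 1.14 for PPARG (SE 0.50, FDR = 0.588), and 1.51, 0.092 and 0.69 without the same dog. Hence a difference in maturation between the treatments was not shown for any of them. No gene passed this test in edgeR (0%), with 1121 genes at an unadjusted P under 0.05 and 192 genes called by DESeq2.

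**Figure D2:**
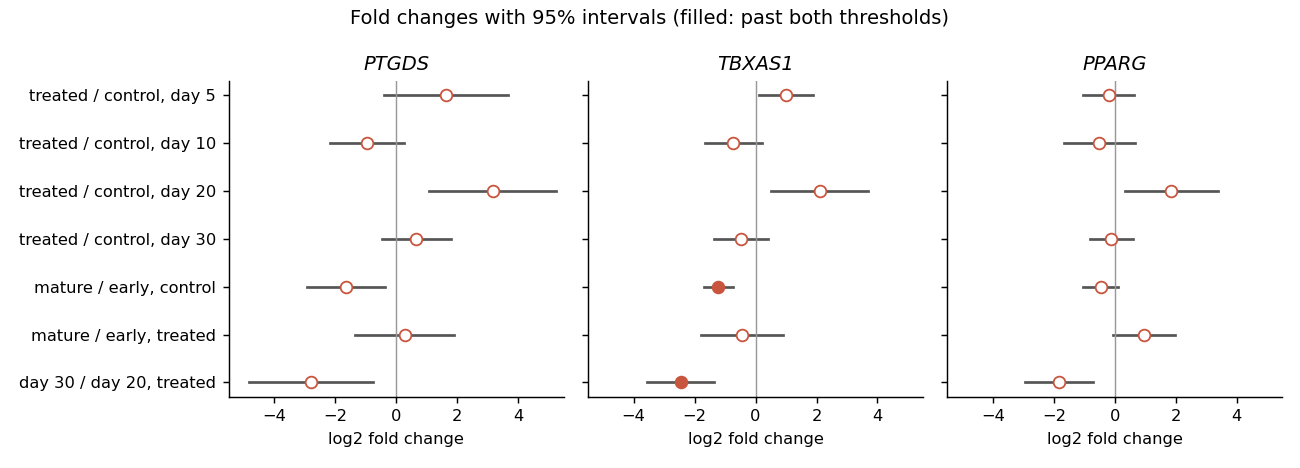
Log2 fold changes of PTGDS, TBXAS1 and PPARG (points) with 95% intervals (bars) in 7 comparisons, from edgeR, with filled points past both thresholds. Only TBXAS1 has filled points, for mature over early controls (-1.22) and for day 30 over day 20 in treated dogs (-2.46), and on day 20 the intervals of all 3 genes lie above 0.

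The direct question of the study was how inhibition of PTGS2 altered the CL on each day. On day 5 the treated mean of TBXAS1 was 23.9 ± 12.1 CPM against 11.9 ± 0.98 CPM in controls (SD, n = 4 each), giving a log2 fold change of 0.99 (SE 0.40, FDR = 0.412 in edgeR). For PTGDS the means were 87.1 ± 84.1 and 28.4 ± 19.2 CPM (SD), a log2 fold change of 1.63 (SE 0.91, FDR = 0.423), and for PPARG the log2 fold change was -0.20 (SE 0.38, FDR = 0.765). All 3 genes overlapped between treated and control dogs. Both high PTGDS values came from replicates 1 and 4, in which the 4 smooth muscle markers with an identifier (of 5 listed) summed to 1210 and 3055 CPM, while they summed to 2037 and 498.4 CPM in replicates 2 and 5 and to 259.4 to 457.4 CPM in day 5 controls, and their part in the PTGDS values was not tested. Macrophage markers summed to 244.4 to 748 CPM in treated and to 158.1 to 435 CPM in control dogs of day 5, and their part in the TBXAS1 values was likewise not tested. No gene passed on day 5 in edgeR (0%), with 1609 at an unadjusted P under 0.05, and DESeq2 called 100 genes.

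On day 10 all 3 genes were lower in the treated mean, but none passed the thresholds. Log2 fold changes were -0.96 for PTGDS (SE 0.54), -0.72 for TBXAS1 (SE 0.42) and -0.51 for PPARG (SE 0.52), each with an FDR of 1. Without control replicate 2 the value for PPARG was 0.10 and that for PTGDS -0.40. On day 30 the corresponding values were 0.66 (SE 0.49, FDR = 0.778), -0.47 (SE 0.39, FDR = 0.809) and -0.11 (SE 0.30, FDR = 0.971). No gene passed on day 10 (0%) or on day 30 (0%) in edgeR, with 121 and 1074 genes at an unadjusted P under 0.05, and DESeq2 called 0 and 116.

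Day 20 showed the largest treated over control ratios of the 4 days for all 3 genes. PTGDS averaged 134.2 ± 79.0 CPM in treated and 15.1 ± 15.7 CPM in control dogs (SD, n = 3 each), with a log2 fold change of 3.16 (SE 0.90, 95% interval 1.08 to 5.23), or 8.92-fold. TBXAS1 averaged 20.8 ± 18.5 and 4.98 ± 1.85 CPM (SD), a log2 fold change of 2.10 (SE 0.69, 95% interval 0.52 to 3.68), or 4.29-fold. PPARG averaged 34.4 ± 28.9 and 9.79 ± 1.08 CPM (SD), a log2 fold change of 1.86 (SE 0.67, 95% interval 0.33 to 3.39), or 3.63-fold. Every treated dog exceeded every control for PTGDS and TBXAS1, as was the case for 16.1% of all genes in this direction, and 2 of 3 did for PPARG. In edgeR the FDR was 0.185 for PTGDS, 0.202 for TBXAS1 and 0.232 for PPARG, so none passed both thresholds. Only 0.102% of the 13726 genes did, while 17% had a P under 0.05, and all genes together had a median log2 fold change of 0.11.

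These calls depended on the tool and on single dogs. DESeq2 called all 3 genes on day 20 (FDR = 0.00490, 0.0463 and 0.0844 for PTGDS, TBXAS1 and PPARG), among 10.8% of genes. A fit of all 26 samples in edgeR, with a spread shared by the 8 groups, called them too (FDR = 0.0663, 0.0352 and 0.0552), among 11% of genes. Without treated replicate 2 the 3 genes passed both thresholds (FDR = 0.0983, 0.0726 and 0.0212), among 7.4% of genes, and their log2 fold changes were 2.73, 2.40 and 2.30. Without treated replicate 3 only 0.00733% of genes were called and the values were 3.09, 1.05 and 0.96 (FDR = 0.289, 0.308 and 0.325), so that dog carried much of the difference in TBXAS1 and PPARG but little of that in PTGDS. Leaving out control replicate 3 gave 4.48 for PTGDS (FDR = 0.183).

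**Figure D3:**
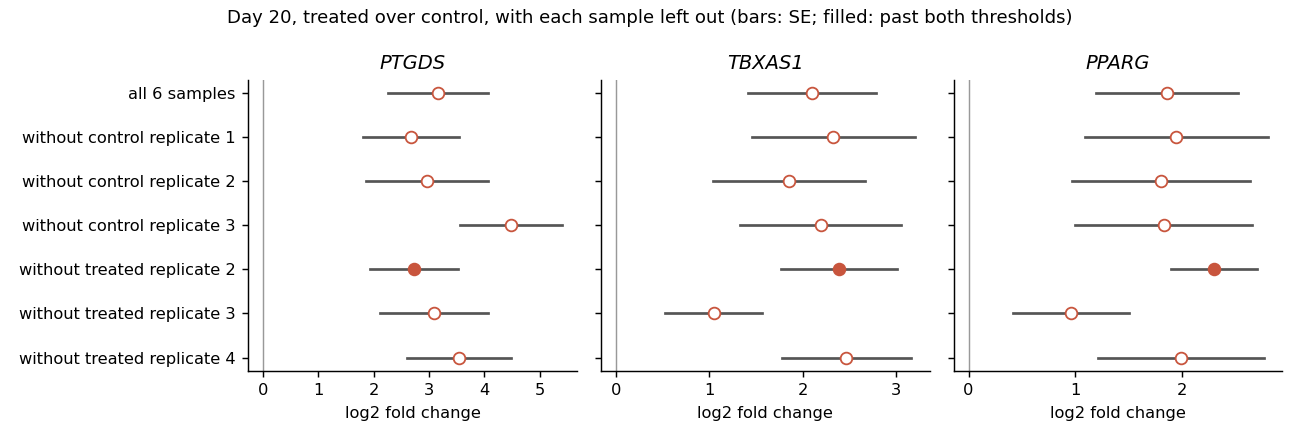
Log2 fold change of treated over control dogs on day 20 for PTGDS, TBXAS1 and PPARG (points, bars show SE) with all 6 samples and with each sample left out in turn, filled points past both thresholds. All values are above 0, omission of treated replicate 2 fills the points of the 3 genes, and omission of treated replicate 3 lowers TBXAS1 to 1.05 and PPARG to 0.96.

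Other cell type markers differed on day 20 as well. Of the 5 oocyte markers 4 were called higher in treated dogs in edgeR, which called 0.102% of all genes. Markers had their identifiers from the study's own lists of changed genes, so this count is not independent evidence. The 4 smooth muscle markers summed to 140.4 to 275.9 CPM in control dogs and to 960.5, 417.2 and 420.2 CPM in treated replicates 2, 3 and 4. PTGDS was at 208.79, 142.43 and 51.4 CPM in these 3 treated dogs. Macrophage markers summed to 136.2 to 169.5 CPM in treated and to 93.2 to 129.9 CPM in control dogs, with no marker at 0, 5 of the 7 higher in treated dogs (median log2 fold change 0.99) and none called. In treated replicates 2, 3 and 4 the macrophage sums were 169.5, 136.2 and 149.2 CPM and the oocyte sums 148, 258.3 and 200.2 CPM. Oocyte sums also reached 113.8 CPM in day 10 controls and 127.6 CPM in day 30 treated dogs. The part of these cell types in the values of PTGDS, TBXAS1 and PPARG was not tested.

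Whether the difference between treated and control dogs on day 20 departed from that on the other days was tested in the fit of all samples. Against day 10 the excess was 4.12 on the log2 scale for PTGDS (SE 1.36, FDR = 0.193), 2.79 for TBXAS1 (SE 0.71, FDR = 0.133) and 2.32 for PPARG (SE 0.74, FDR = 0.185). Compared with day 30 it was 2.61 (SE 1.33, FDR = 0.383), 2.65 (SE 0.72, FDR = 0.221) and 2.04 (SE 0.74, FDR = 0.290). Relative to day 5 it was 1.53 (SE 1.23), 1.06 (SE 0.66) and 1.99 (SE 0.69), with an FDR of 0.567 or more. Without day 20 treated replicate 3 the excess over day 5 was 0.043 for TBXAS1 and 1.10 for PPARG, that over day 10 was 1.74 and 1.39, and that over day 30 was 1.60 and 1.10. None of these differences passed in edgeR, nor did those of any other gene (0%, 0% and 0%), with 1772, 1931 and 866 genes at an unadjusted P under 0.05. DESeq2 called all 3 genes against day 10 (FDR = 0.0463, 0.0202 and 0.0704), among 4.16% of genes, and TBXAS1 against day 30 (FDR = 0.0529), among 2.5%. It called none of the 3 against day 5, among 53 genes in all.

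In treated dogs the levels of day 20 were followed by lower ones on day 30. TBXAS1 fell between day 20 and day 30 (log2 fold change -2.46, SE 0.52, FDR = 0.0443 in edgeR), with no overlap between the days, and passed both thresholds together with 2.24% of all genes. PTGDS differed by -2.80 (SE 0.99, FDR = 0.165), also without overlap, as did 12.5% of all genes in this direction, and PPARG by -1.84 (SE 0.53, FDR = 0.101). DESeq2 called all 3 in this step, among 8.07% of genes. Without day 20 treated replicate 3, TBXAS1 changed by -1.41 and lost its call (FDR = 0.214), and it also lost it without day 30 treated replicate 4 (FDR = 0.188) or 5 (FDR = 0.193).

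The preceding step, from day 10 to day 20 in treated dogs, gave 2.003 for PTGDS (SE 0.96, FDR = 0.461), 1.43 for TBXAS1 (SE 0.50, FDR = 0.292) and 1.58 for PPARG (SE 0.53, FDR = 0.275). Without day 20 treated replicate 3 TBXAS1 was at 0.38 and PPARG at 0.66 in this step. None passed in edgeR, where 0.155% of genes did, and PPARG alone did with DESeq2 (FDR = 0.0966), where 2.9% of genes did. From day 5 to day 10 the treated dogs differed by -1.38 for PTGDS (SE 0.90, FDR = 0.744), -1.62 for TBXAS1 (SE 0.49, FDR = 0.338) and -0.00 for PPARG (SE 0.49, FDR = 1). In this step 0.00706% of genes passed in edgeR and 1.62% with DESeq2, which called TBXAS1 (FDR = 0.0730).

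All 3 pairs of the genes had a positive r of log2 CPM over the samples, but none reached 0.05 after adjustment. Unadjusted permutation p was 0.0205 for PTGDS with TBXAS1, 0.0692 for PTGDS with PPARG and 0.0104 for TBXAS1 with PPARG. Across the 26 samples Pearson's r of log2 CPM was 0.45 between PTGDS and TBXAS1, 0.36 between PTGDS and PPARG and 0.49 between TBXAS1 and PPARG (permutation p = 0.0615, 0.138 and 0.0615 after adjustment over 6 relations), with Spearman's rho of 0.41, 0.25 and 0.39 (adjusted permutation p = 0.153, 0.321 and 0.153). Once the group means were removed, r was -0.01, 0.05 and 0.52 (adjusted permutation p = 0.965, 0.965 and 0.168), with rho of -0.03, 0.02 and 0.43 (adjusted permutation p = 0.917, 0.917 and 0.153). PTGDS therefore varied between dogs of a group without a detectable relation to either of the others. Between TBXAS1 and PPARG the within-group r was 0.31 without the pair of samples farthest from the median of TBXAS1, of which day 20 treated replicate 3 was one. For the other pairs it was 0.00 and -0.01 without such samples, and for log2 CPM it was 0.46, 0.46 and 0.39.

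Among 4314 genes with a symbol, those most like PTGDS across the 26 samples were TNNI3 (troponin I of cardiac muscle, r = 0.93), EPHB2 (an ephrin receptor, r = 0.92) and ASB2 (r = 0.91). With the group means removed their r was 0.90, 0.86 and 0.87, in the same samples from which they were picked. Symbols came from the study's lists of changed genes, so other genes were not searched. TBXAS1 was most like OCA2 (r = 0.85), TGFBI (an extracellular matrix protein, r = 0.83) and CD44 (a receptor for hyaluronan, r = 0.83), and within groups these r were 0.59, 0.42 and 0.55. PPARG was most like RHOBTB1 (r = 0.88), ELOVL2 (an elongase of polyunsaturated fatty acids, r = 0.86) and PRSS35 (r = 0.86), with 0.91, 0.82 and 0.82 within groups. These genes were picked for their r, and the samples share group differences and depth, so no test is given. TNNI3, EPHB2, ASB2 and ELOVL2 went down to 0.24, 0.28, 0 and 0.12 CPM in their lowest samples, where few reads carry the value.

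Of the 13 genes listed for prostanoid synthesis 7 had an identifier: PTGS2, PTGDS, HPGDS, TBXAS1, PTGIS, PTGES and AKR1B1, an aldo-keto reductase with PGF synthase activity. Identifiers came from the study's own lists of changed genes, which favours genes that pass a threshold. The counts and medians of these 7 genes are therefore not independent evidence of a change or its direction. For the same reason the values over all genes are no fair baseline for them. In mature compared with early controls 5 of the 7 fell and none rose, where 10.4% of all genes fell, with a median log2 fold change of -1.63 beside 0.02 over all genes. PTGDS, at -1.64, and HPGDS, at 0.40, did not pass. TBXAS1 had the smallest decrease of those called, -1.22, beside PTGS2 at -3.19 (SE 0.59, FDR = 0.00284), PTGIS at -2.53 (SE 0.35, FDR = 0.000543), PTGES at -1.63 (SE 0.27, FDR = 0.00161) and AKR1B1 at -1.37 (SE 0.28, FDR = 0.00459). In treated dogs PTGIS (-2.50, FDR = 0.0174) and AKR1B1 (-2.11, FDR = 0.0905) fell between the same stages. Not analysed here, for want of an identifier, were PTGS1 and the receptors of PGD2 and thromboxane (PTGDR, PTGDR2 and TBXA2R).

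On day 20 none of the 7 passed in edgeR, and their median log2 fold change was 0.54. PTGDS and TBXAS1 had the largest ratios of treated over control among them. HPGDS, the hematopoietic PGD2 synthase, went the other way, with 0, 3 and 1 reads in the treated dogs (replicates 2, 3 and 4) and 31, 70 and 46 reads in the controls (replicates 1, 2 and 3). Its FDR was 0.102 in edgeR and 2.1e-05 in DESeq2, and its reads are too few for a precise ratio. Groups without overlap in this direction were found for 14.2% of all genes. PTGS2, the target of firocoxib, was at 0.54 (SE 1.14, FDR = 0.810), PTGIS at 0.63 (FDR = 0.497), PTGES at 0.47 (FDR = 0.762) and AKR1B1 at -0.31 (FDR = 0.853).

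Receptors with an identifier were 4 of 9. They and the genes of transport and breakdown were named through the study's lists of changed genes, so their calls are not independent evidence. In maturing controls 20.5% of all genes were called. In maturing controls PTGER4, a PGE2 receptor, fell by 1.45 (FDR = 0.000378) and PTGIR, the prostacyclin receptor, by 1.88 on the log2 scale (FDR = 0.0154), PTGFR, the PGF2α receptor, rose by 1.52 (FDR = 0.00282), and PTGER2, another PGE2 receptor, was at -0.86 (FDR = 0.140). PTGIR was low, with means of 1.97 CPM in day 5 and 0.32 CPM in day 30 controls, so its ratio rests on few reads. HPGD, the enzyme that inactivates prostaglandins, rose by 2.84 (FDR = 0.00283), while SLCO2A1, the prostaglandin transporter and the other of 2 genes of transport and breakdown with an identifier (of 5), did not pass. HPGD rose in treated dogs too, by 3.34 (FDR = 0.0753), where no receptor passed and 4.65% of all genes did. On day 20 PTGER4 was at 2.24 (FDR = 0.202) and PTGFR at -2.61 (FDR = 0.229) in treated over control dogs, and neither passed in edgeR. DESeq2 called PTGER4 (FDR = 0.0414) and PTGFR (FDR = 0.0239) along with PTGDS, HPGDS and TBXAS1, among 10.8% of all genes. In treated dogs between day 20 and day 30, TBXAS1 was the only listed prostanoid gene with an identifier that edgeR called. Of all genes 2.24% were called in this step, and TBXAS1 lost its call when any of 3 dogs was left out.

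**Figure D4:**
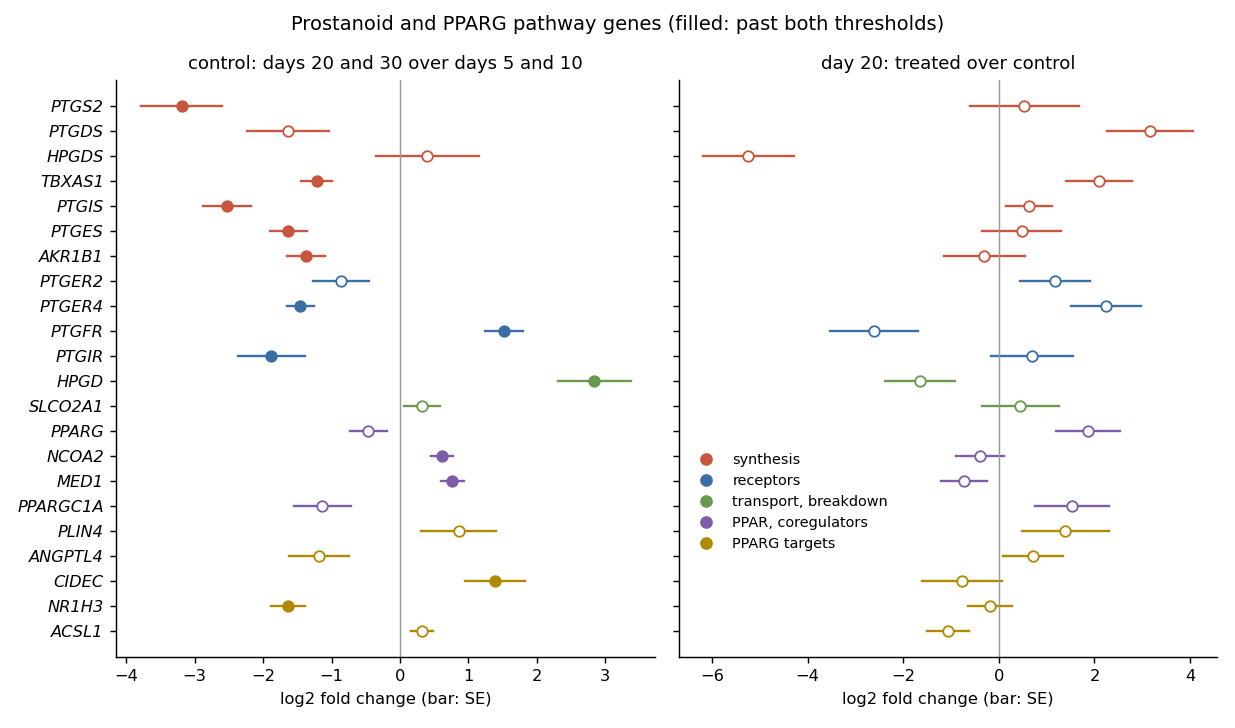
Log2 fold changes (points) with SE (bars) of the 22 listed genes of prostanoid synthesis, reception, transport and breakdown and of PPARG function that had an identifier, for mature over early controls (left) and treated over control dogs on day 20 (right), with filled points past both thresholds. The synthases are at negative values in maturing controls except HPGDS, and on day 20 PTGDS (3.16) and HPGDS (-5.24, resting on 0, 3 and 1 reads in treated dogs) lie at opposite ends.

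Around PPARG itself, 4 of 14 receptors and coregulators had an identifier. They and the target genes below were named through the study's lists of changed genes, so their calls are not independent evidence. In maturing controls 20.5% of all genes were called. The coactivators NCOA2 and MED1 rose in maturing controls by 0.62 (FDR = 0.0191) and 0.77 (FDR = 0.00683), PPARG was at -0.46, and PPARGC1A, at -1.13, missed the threshold for P in edgeR (FDR = 0.0635) and passed with DESeq2 (-1.14, FDR = 0.0379). On day 20 NCOA2 was at -0.40, MED1 at -0.73 and PPARGC1A, a coactivator in energy metabolism, at 1.53 in treated over control dogs, with FDR values of 0.680, 0.447 and 0.343. The genes PPARA, PPARD and those of the retinoid X receptors were not analysed here. Of 16 listed target genes 5 had an identifier. In maturing controls CIDEC, a lipid droplet protein, rose by 1.38 (FDR = 0.0380) and NR1H3, which encodes the oxysterol receptor LXR alpha, fell by 1.64 (FDR = 0.000916), and NR1H3 fell in treated dogs too, by 2.29 (FDR = 0.0169). CIDEC and PPARGC1A were at low levels, with means between 0.33 and 1.75 CPM in the control groups, so their ratios rest on few reads.

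On day 20 the 5 target genes had a median log2 fold change of -0.18 in treated over control dogs, beside 0.11 over all genes. They lay between -1.06 for ACSL1 (FDR = 0.272), which activates fatty acids, and 1.39 for PLIN4 (FDR = 0.442), a lipid droplet protein. None passed in edgeR or in DESeq2, where 0.102% and 10.8% of all genes did. The lack of a call among so few genes does not show that none of them differed. Between days 20 and 30 in treated dogs ACSL1 rose by 1.32 (FDR = 0.0545) while PPARG was at -1.84, in a step in which 2.24% of all genes passed.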

How the data were processed

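Poly-A selected RNA of corpus luteum tissue was sequenced with the Illumina TruSeq RNA v2 kit, which does not mark strand. According to the submitters' processing notes and the paper's methods, the authors used STAR with the genome build CanFam3.1 for alignment and featureCounts for counts per Ensembl gene. The deposited values are raw read counts, neither normalized nor filtered, for 19856 genes in each of 26 samples, with 12831896 to 22658950 reads per sample. The 4 samples that the authors removed as outliers, judged from sample correlations and scatter plots, were not used here. Among 30 pairs of samples of the same group no copy was found.

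Groups came from the labels, and each sample is 1 dog. A gene entered a comparison if any of its groups averaged 10 reads or more. Tests were made with edgeR 4.0.16 (R 4.3.3; quasi-likelihood test, TMM factors), with Benjamini-Hochberg adjustment over all genes tested and the study's thresholds, P under 0.01 and FDR under 0.1. Treated and control samples of each day, and mature and early samples of each treatment, were fitted alone. Interactions and steps between days came from 1 fit of all samples. Log2 CPM used a prior count of 2, and correlations had 100000 permutations. The alternatives were DESeq2 1.42.0, limma voom (limma 3.58.1), RLE factors, no filter, all 26 samples in 1 fit, a block for the replicate number, a prior count of 0.5 and the omission of each sample in turn. The tests were tried on simulated data with known changes. Size and direction were recovered throughout, but with the spread of the day 20 samples edgeR and limma voom called no changed gene, and DESeq2 called a part of them together with unchanged genes. A missed threshold on day 20 therefore does not show that a gene did not differ.

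PTGDS, TBXAS1, PPARG and all gene lists were chosen with earlier results of these data known. Named in addition were listed genes past both thresholds, the other terminal synthases, the receptors of PGD2 and thromboxane, PTGS1, PTGS2, the other PPAR and the RXR genes, and for each of PTGDS, TBXAS1 and PPARG the 3 genes with the highest r. PTGER2, SLCO2A1, PPARGC1A, PLIN4 and the cell type markers were named after their values were seen. Symbols came from the study's supplementary lists of changed genes (4319 used), and 0 columns of the files were left unmapped.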

Additional observations from a re-analysis of the deposited data

Results flagged for a closer look

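Day 20 treated replicate 3 stood apart from the other mature treated samples for 2 of the 3 genes. TBXAS1 was at 42.111 CPM in this sample, the next of the 6 mature treated samples being at 11.779 CPM. PPARG was at 66.009 CPM, the next at 27.744 CPM. In each case the gap to the next sample took up more of the range of the 6 samples than Dixon's 95% limit allows (0.771 of the range for TBXAS1 and 0.651 for PPARG). The limit assumes a single group of normally distributed values, whereas the mature treated samples pool 2 days of collection, between which TBXAS1 was called different in treated dogs. Exceeding it therefore does not show that this dog was an outlier within day 20, and day 20 alone was not tested. Of 18 groups of samples examined in this way 2 exceeded the limit. Some of these groups lie within others, so this count is not compared with chance. PTGDS in the same sample was at 142.43 CPM, between the other day 20 treated samples.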

How the results depend on the processing

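Of 255 values of the 3 genes under another tool, scaling, filter or fit, 231 kept their direction and their side of the thresholds, as did 900 of 936 with 1 sample left out. DESeq2 added calls on day 20 (3.16, 2.07 and 1.81 for PTGDS, TBXAS1 and PPARG), for the excess of day 20 over day 10 (4.08, 2.80 and 2.32) and over day 30 (TBXAS1, 2.62), for PTGDS in maturing controls (-1.67), and in treated dogs for day 10 over day 5 (TBXAS1, -1.64), day 20 over day 10 (PPARG, 1.61) and day 30 over day 20 (PTGDS, -2.78, and PPARG, -1.85). A fit of all 26 samples called the 3 genes on day 20 (3.15, 2.06 and 1.81), and turned PTGDS in maturing treated dogs to -0.087. In day 10 over day 5 treated dogs PPARG, at -0.00, turned to 0.00698 with DESeq2, 0.00697 with RLE factors and 0.00181 without a filter. PTGDS in day 30 over day 20 controls turned to 0.26 with limma voom. The within-group r of PTGDS and TBXAS1 turned to 0.00946 with RLE factors. The causes were not tested. With RLE factors 20 of 21 neighbouring pairs overlapped.

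With each sample left out, the calls or directions of these results changed in at least 1 fit. In treated over control dogs, PPARG ranged from -0.45 to 0.19 on day 5 and from -0.81 to 0.10 on day 10, and on day 20 PTGDS ranged from 2.68 to 4.48, TBXAS1 from 1.05 to 2.47 and PPARG from 0.96 to 2.30. In maturing CL, PTGDS ranged from -2.09 to -1.26 in controls (called without day 5 control replicate 3 or day 20 control replicate 3) and from -0.33 to 0.69 in treated dogs. TBXAS1 in maturing controls kept its call in all 13 fits (-1.30 to -1.09). The excess of day 20 over day 10 for TBXAS1 ranged from 1.74 to 3.20, called without day 5 treated replicate 1 or day 20 treated replicate 4. For day 10 over day 5, TBXAS1 ranged from -0.15 to 0.33 and PPARG from -0.27 to 0.70 in controls, and PPARG from -0.20 to 0.29 in treated dogs. From day 20 to day 30, PTGDS ranged from -0.71 to 1.09 and TBXAS1 from -0.076 to 0.43 in controls, and TBXAS1 from -2.81 to -1.41 and PPARG from -2.28 to -0.92 in treated dogs. PPARG for day 20 over day 10 in treated dogs ranged from 0.66 to 2.03.

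The replicate numbers of the labels were not taken as pairs, since same-numbered samples of day 5 correlated in their deviations at -0.09 to 0.51, those of day 20 at -0.39 for both pairs and those of day 30 at -0.18 to 0.03. Over the 13 same-numbered pairs of the maturation comparison the range was -0.58 to 0.67 in treated dogs and -0.42 to 0.36 in controls, and 19.2% of all samples correlated best with their own number. With a replicate block TBXAS1 in day 30 over day 20 treated dogs was at -2.03 and lost its call (FDR = 0.139 in edgeR), PTGDS and PPARG in maturing treated dogs turned to -0.39 and -0.016, and PPARG in day 10 over day 5 treated dogs to 0.15. The block called 4 genes in place of 0 on day 5, 10 in place of 14 on day 20, 1806 in place of 2774 in maturing controls, 383 in place of 639 in maturing treated dogs and 5 in place of 318 for day 30 over day 20 in treated dogs, and it could not be fitted on day 10 alone.

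Day 20 calls numbered 14 in edgeR, 1479 with DESeq2, 99 with limma voom, 95 with RLE factors, 109 without a filter and 1559 in the fit of all samples. In maturing treated dogs 639 genes were called in edgeR, 1620 with DESeq2, 305 with limma voom and 1705 in the fit of all samples, and in maturing controls the last called 1754 in place of 2774. For the other steps in controls limma voom called 57 genes and DESeq2 795 for day 20 over day 10, in place of 11. In treated dogs DESeq2 called 229 genes for day 10 over day 5, 411 for day 20 over day 10 and 1143 for day 30 over day 20, in place of 1, 22 and 318. With DESeq2 3 of the 7 genes of prostanoid synthesis were called on day 20, where 10.8% of all genes were. In maturing treated dogs it called 4 of the 7, where 1620 of 13747 genes were called. These 7 had an identifier through the study's own lists of changed genes, so the counts are not independent evidence.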

Other observations

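Further cell type markers were summed in the day 20 samples. Stromal fibroblast markers (5 of 5 with an identifier) summed to 4594 to 7110 CPM in treated and 1696 to 4025 CPM in control dogs, with 4 of the 5 higher in treated dogs and a median log2 fold change of 0.94. Granulosa and follicle markers (3 of 5) summed to 537.1 to 874.1 CPM in treated and 1738 to 2491 CPM in control dogs, but the markers differed in direction, with FSHR at -2.05, INHA at 0.35 and FST at 4.34 on the log2 scale. Luteal steroidogenic markers (2 of 6) summed to 112.2 to 245.4 and 307.6 to 507.7 CPM, with PRLR at -1.34 and LHCGR at 0.04. Mast cell markers (4 of 5) summed to 30.55 to 55.44 and 54.14 to 80.04 CPM, but only KIT was lower in treated dogs (-0.95), while CPA3, FCER1A and MS4A2 were at 1.70, 3.41 and 3.897. Adipocyte markers (2 of 4, both lower) summed to 3.373 to 19.52 and 21.87 to 31.55 CPM, endothelial markers (3 of 5, 2 of them higher) to 160.2 to 936.8 and 478.9 to 567.1 CPM, and the mesothelial marker CALB2 (1 of 5) to 0 to 0.386 and 0.158 to 0.244 CPM. Of these, no marker passed the thresholds of edgeR on day 20.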
